A study of Rattus norvegicus with 24 samples.

Results

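The genes described here are 3 adult globin genes and 1 gene of haem synthesis: Hbb and Hbb-b1, which encode beta globin chains, Hba-a1, which encodes an alpha globin chain, and Alas2, which encodes the erythroid form of 5-aminolevulinate synthase. All 4 were taken by gene symbol from the probe annotation of a rat array, and each had 1 probe, so that they are 4 of 4126 named genes and 4 of 4803 probes. They were chosen by measured values, namely their scores in earlier results of these data, as a reading of how much blood RNA each ventricle sample held. Their own levels and differences are therefore given as a description, without a test, and tests are given only for other genes of haem, iron and red cell biology.

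The samples were ventricles of rat hearts at day 14 of an experiment whose title names monocrotaline. This compound from plants damages the small arteries of the lung, which raises the pressure against which the right ventricle pumps. Samples labelled CHF were read from that title as decompensated hypertrophy (heart failure), samples labelled HYP as compensated hypertrophy, and samples labelled CON as controls. The right ventricle was measured in 6 CHF, 6 HYP and 6 CON samples and the left ventricle in 2 CHF, 2 HYP and 2 CON samples. The labels give no strain, age, sex or dose, and do not state that every sample is a separate animal. Each 2-colour array set 1 ventricle sample against a common reference pool, and all groups share that pool. Values are scores in array SDs after each array was centred on its median: 0 is the median probe of that array, and a score below 0 means less signal in the ventricle relative to the pool than for the median probe, if the ratio runs as sample over pool. A difference in scores is not a log2 fold change.

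Haemoglobin is a tetramer of alpha and beta globin chains, each holding a haem group. Mature mammalian red cells have no nucleus, and globin mRNA in a solid tissue is carried mainly by the reticulocytes among the red cells left in its vessels and cavities. Haem synthesis starts with 5-aminolevulinate synthase, for which erythroid cells use Alas2 and other cells use the housekeeping gene Alas1. In a bulk sample, fewer red cells and less globin RNA per cell cannot be told apart.

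The bases upstream of the globin genes are shown because these genes moved together on the arrays and because Hbb and Hbb-b1 diverged on some of them. They are the 250 bases before the start annotated by RefSeq in the GRCr8 assembly, 5′ to 3′ on the strand of the gene. Hbb lies on the minus strand (chr1:167663722-167663971), as do Hbb-b1 (chr1:167643521-167643770) and Hba-a1 (chr10:15842581-15842830). Capitals mark short motifs on either strand, spelled out after the sequences.
Hbb: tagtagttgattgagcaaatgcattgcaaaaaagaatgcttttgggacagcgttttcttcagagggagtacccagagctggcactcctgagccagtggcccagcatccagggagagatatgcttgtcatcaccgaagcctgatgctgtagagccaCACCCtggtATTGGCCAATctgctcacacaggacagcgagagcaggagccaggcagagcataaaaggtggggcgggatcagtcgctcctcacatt
Hbb-b1: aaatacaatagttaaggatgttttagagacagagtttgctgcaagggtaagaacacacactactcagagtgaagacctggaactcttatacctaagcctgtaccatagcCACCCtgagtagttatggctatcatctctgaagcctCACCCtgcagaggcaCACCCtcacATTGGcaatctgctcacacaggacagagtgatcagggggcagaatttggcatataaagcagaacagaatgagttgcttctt
Hba-a1: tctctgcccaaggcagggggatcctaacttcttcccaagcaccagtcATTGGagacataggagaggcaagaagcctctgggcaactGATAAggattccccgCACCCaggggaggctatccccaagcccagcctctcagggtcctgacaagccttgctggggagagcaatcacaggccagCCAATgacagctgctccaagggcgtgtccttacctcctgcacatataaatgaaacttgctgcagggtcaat
The CACCC motif, present in many globin promoters, was found in all 3 globin stretches and in 49.2% of 33469 annotated promoters of this length, searched on either strand. The CCAAT motif was likewise found in all 3, and in 34.0% of promoters. In Hbb a CCAAT match and its reverse lie side by side, sharing no base. The third motif, GATAA, which is the core that GATA factors recognise, was found in Hba-a1 at base -164 and in Alas2 (chrX:22895200-22895449, plus strand) at base -135 from the annotated start, and in 23.5% of all promoters. A match is a description of the letters and not of a bound site. The Alas2 stretch ends in letters like those of a splice acceptor, so that it may not be a promoter, and it is not printed. Aligned end to end, the Hbb and Hbb-b1 stretches were 60.9% identical, and the Hbb and Hba-a1 stretches 48.0%. Hbb and Hbb-b1 are close relatives in their coding parts, and signal from one may reach the probe of the other. The probe sequences were not used here.

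Depth on an array is its number of values, which ranged from 2162 to 3658 of 4803 probes. The globin probes had a value on all 24 arrays and Alas2 on 23, the exception being CHF right ventricle array 12, the array with the fewest values. Whether a score runs as sample over pool or the reverse is unsettled. Some arrays opposed each other across probes, and the lowest Pearson correlation, -0.530, joined right ventricle arrays CHF 14 and HYP 8. Each comparison of the 4 genes is therefore also given with the sign turned on 5 arrays, and those of other genes only in part. A difference of another gene that is given unturned alone may change when turned. The turned arrays were CHF 10 and CHF 14 in the right ventricle, and CHF 9, CON 21 and CON 22 in the left. Every pair of arrays correlated below -0.3 joined 1 of these 5 to a right ventricle array that was not turned. The 5 did not oppose all arrays. Their median correlations with right ventricle arrays were 0.0824, -0.110, -0.142, 0.0255 and -0.0764 in the order named, and -0.0321 for HYP right ventricle array 4, which was not turned.

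Scores of the globin genes were far lower in the right than in the left ventricle on nearly every array, while HYP left ventricle array 5 carried globin scores as low as the lowest right ventricle arrays. Across probes that array correlated with the other left ventricle arrays between -0.066 (HYP 3) and 0.425 (CON 22). Whether it matches its label was not tested, it is not among the 5 turned arrays, and each left ventricle difference that involves HYP rests on it. Hbb in the right ventricle had a lowest score of -3.85, a median of -3.17 and a highest of -0.133 in CHF. Its lowest, median and highest scores were -6.22, -5.05 and -1.77 in HYP and -8.30, -4.24 and -1.15 in CON. Left ventricle scores of Hbb stood at 2.05 and 3.40 in CHF, at 5.36 and -7.40 in HYP and at 5.59 and 3.29 in CON. All 18 right ventricle scores of Hbb were below 0, and 5 of 6 left ventricle scores were above 0. With the 5 arrays turned, the counts were 16 of 18 and 2 of 6. The same counts, unturned and turned, hold for Hba-a1 and Hbb-b1.

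Hba-a1 followed the same order. Its lowest, median and highest right ventricle scores were -4.76, -3.67 and -1.83 in CHF, -6.12, -5.44 and -2.33 in HYP, and -7.35, -4.42 and -2.53 in CON. Its left ventricle scores were 2.60 and 2.98 in CHF, 5.72 and -8.04 in HYP, and 5.02 and 3.28 in CON. The value of -8.04 on HYP left ventricle array 5 was the lowest of all 3594 values of that array. Across the right ventricle arrays, Hba-a1 was among the 10 lowest values on 14 of 18 arrays and Hbb on 11 of 18, or on 12 and 9 of 18 with the sign turned.

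Hbb-b1 was low in the right ventricle as well, but by less. Its lowest, median and highest right ventricle scores were -3.59, -2.16 and -0.254 in CHF, -4.59, -2.30 and -1.89 in HYP, and -4.30, -2.84 and -1.07 in CON. On the left ventricle arrays it stood at 2.18 and 3.13 in CHF, at 5.21 and -4.22 in HYP and at 5.08 and 3.24 in CON. It was among the 10 lowest values on 5 of 18 right ventricle arrays, turned or not. Each of the 3 globin genes was among the 10 highest values on 2 of 6 left ventricle arrays, HYP 3 and CON 21. CON 21 is a turned array, and with the sign turned HYP 3 alone was left, 1 of 6.

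Alas2 did not follow the globins closely. Its lowest, median and highest right ventricle scores were -2.43, -2.11 and 1.25 in CHF (5 arrays with a value), -2.34, -1.82 and 1.12 in HYP, and -2.68, -0.195 and 0.582 in CON. Its left ventricle scores were 1.33 and 0.78 in CHF, -0.604 and 0.956 in HYP, and 1.23 and 1.85 in CON. The right and left ventricle scores of Alas2 overlapped. On HYP left ventricle array 5, where every globin score was below -4, Alas2 was at 0.956, and on HYP left ventricle array 3, where every globin score was above 5, it was at -0.604.

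**Figure D1:**
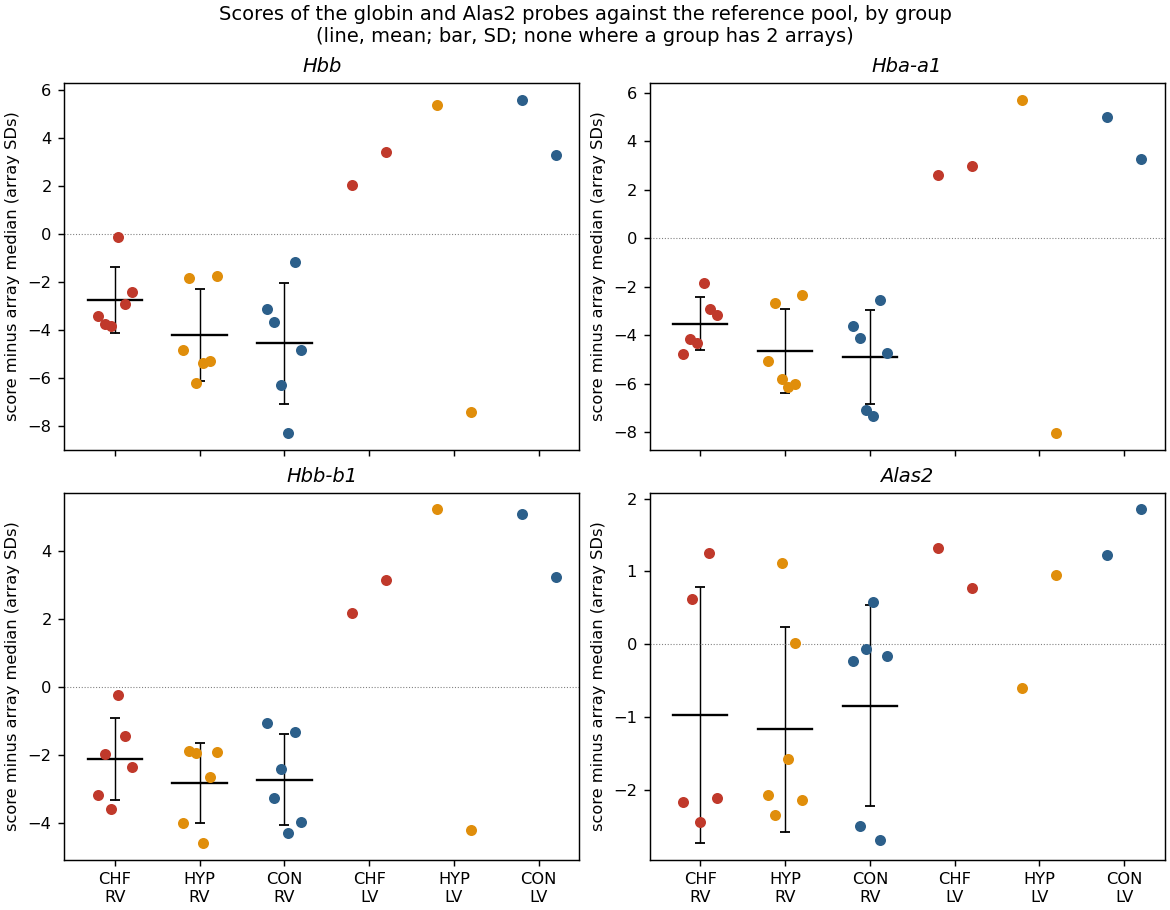
Scores of Hbb, Hba-a1, Hbb-b1 and Alas2 (array SDs from the array median, vertical axis) on each array, by condition and ventricle; horizontal lines are means and bars are SDs for the right ventricle groups. The globin points of the right ventricle all lie below 0, and HYP left ventricle array 5, at -7.40 for Hbb, lies apart from the other left ventricle arrays.

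Averaged over the 3 conditions, right minus left was -5.89 ± 1.22 for Hbb, -6.29 ± 1.18 for Hba-a1 and -5.00 ± 0.853 for Hbb-b1 (SE of the limma fit, 18 and 6 arrays). For Alas2 it was -1.91 ± 0.613 (17 and 6 arrays). Ordered from the most negative of 2494 features, these differences held positions 2, 1 and 4 for Hbb, Hba-a1 and Hbb-b1, and 33 for Alas2. Turning the sign moved these positions to 11, 2, 45 and 269. The size of the globin difference rested on HYP left ventricle arrays 3 and 5. Without array 5 it was -8.02 for Hbb, -8.59 for Hba-a1 and -6.57 for Hbb-b1, and without array 3 it was -3.76, -4.00 and -3.43. With the sign turned on the 5 arrays the differences were -1.51 for Hbb, -1.87 for Hba-a1, -1.12 for Hbb-b1 and -0.693 for Alas2. The direction was thus kept at a smaller size in the fit of all arrays. Only HYP 3 and CHF 15 of the left ventricle then had globin scores above 0. Whether the turned direction holds without single arrays, HYP 3 above all, was not tested.

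The same contrast can be read number by number, because 6 left ventricle samples carry the number of a right ventricle sample of the same condition. For CHF number 9, right minus left was -5.46 for Hbb, -7.36 for Hba-a1, -5.36 for Hbb-b1 and -3.49 for Alas2. For CHF number 15 the values were -5.82, -6.15, -5.48 and -2.89 in the same order of genes. HYP number 3 gave -7.21, -8.37, -7.11 and -1.74. HYP number 5 was the exception, at 2.02 for Hbb, 1.92 for Hba-a1, -0.367 for Hbb-b1 and -2.53 for Alas2. CON number 21 gave -6.74, -7.55, -6.42 and -3.91, and CON number 22 gave -8.12, -8.02, -7.22 and -2.01. The right ventricle was thus below the left for 5 of 6 numbers in Hbb and Hba-a1 and for 6 of 6 in Hbb-b1 and Alas2. Turning CHF 9, CON 21 and CON 22 of the left ventricle made these shares 4 of 6 for Hbb and Hba-a1 and 5 of 6 for Hbb-b1 and Alas2. CON number 21 was then at 4.44 for Hbb, 2.49 for Hba-a1 and 3.74 for Hbb-b1, and CON number 22 was at 1.69 for Alas2. HYP number 5 was low in globins on both sides: its right ventricle scores, at -5.38, -6.12 and -4.59 for Hbb, Hba-a1 and Hbb-b1, were the lowest of the 6 numbered pairs in the right ventricle. The labels do not say that a shared number marks 1 animal.

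**Figure D2:**
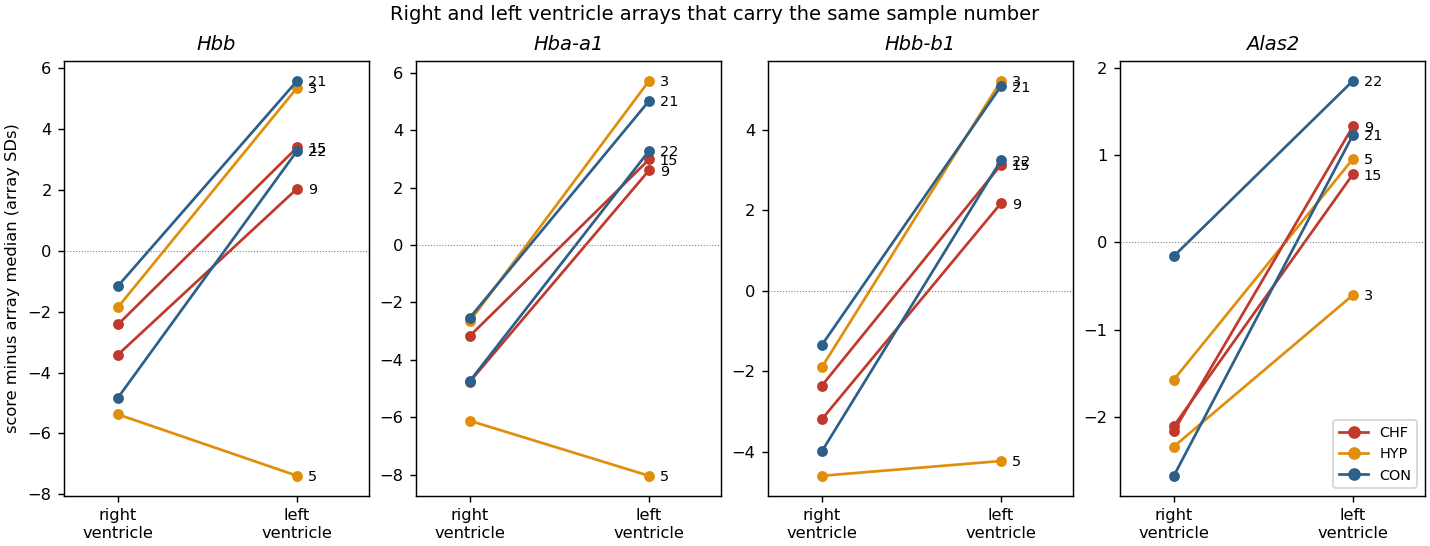
Scores of each gene (array SDs from the array median) in the right and left ventricle samples that carry the same number, joined by a line and coloured by condition. Globin lines run from below 0 in the right to above 0 in the left ventricle for 5 of 6 numbers, while HYP number 5 stays low on both sides; all 6 Alas2 lines slope the same way.

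Between conditions, the globin scores of the right ventricle overlapped widely. Hbb averaged -2.75 ± 1.39 in CHF, -4.22 ± 1.92 in HYP and -4.55 ± 2.51 in CON (SD, n = 6 each). Hba-a1 averaged -3.52 ± 1.09 in CHF, -4.67 ± 1.73 in HYP and -4.91 ± 1.94 in CON, and Hbb-b1 averaged -2.13 ± 1.21, -2.83 ± 1.19 and -2.73 ± 1.35 in the same order of conditions. CHF minus CON was 1.80 ± 1.04 for Hbb, 1.38 ± 0.853 for Hba-a1 and 0.597 ± 0.664 for Hbb-b1 (SE). HYP minus CON was 0.333 ± 1.04 for Hbb, 0.240 ± 0.853 for Hba-a1 and -0.105 ± 0.664 for Hbb-b1. CHF minus HYP was 1.47, 1.14 and 0.702 for the same 3 genes. The order CHF, HYP, CON held for the means of Hbb and Hba-a1, and the ranges of scores of neighbours in that order overlapped.

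Part of the difference between CHF and CON came from single arrays. CHF array 12, the array with the fewest values, had the highest globin scores of the right ventricle, at -0.133 for Hbb, -1.83 for Hba-a1 and -0.254 for Hbb-b1. CON array 20 had the lowest Hbb score, at -8.30, and leaving it out reduced the Hbb difference to 1.06, while leaving out CON array 21 raised it to 2.48. For Hba-a1 the difference was 0.894 without CON array 20, and over all fits without 1 array it reached 1.86. For Hbb-b1 leaving out CHF array 12 gave 0.222, and leaving out CON array 20, 22 or 17 gave 0.284, 0.347 or 0.930. Turning CHF arrays 10 and 14 gave CHF minus CON values of 4.03 for Hbb, 3.74 for Hba-a1 and 1.73 for Hbb-b1, and CHF minus HYP became 3.70, 3.50 and 1.84. HYP minus CON contains none of the turned arrays. These comparisons share samples and are not independent of each other.

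Alas2 averaged -0.966 ± 1.75 in CHF (n = 5), -1.16 ± 1.41 in HYP and -0.840 ± 1.38 in CON (SD, n = 6 each) in the right ventricle. CHF minus CON was -0.127 ± 0.827, HYP minus CON -0.325 ± 0.789 and CHF minus HYP 0.198 ± 0.827 (SE). With the sign turned these became -0.875 for CHF minus CON and -0.550 for CHF minus HYP. The mean of the 4 differences was 0.915 for CHF minus CON, 0.0357 for HYP minus CON and 0.879 for CHF minus HYP. The median of the 4 was 0.990, 0.0674 and 0.923, where the median of all 3199 features was -0.0992, -0.0456 and -0.0442.

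In the left ventricle each condition had 2 arrays, and the 2 HYP arrays stood at opposite ends for the globins. CHF minus CON was -1.72 ± 2.59 for Hbb, -1.36 ± 2.51 for Hba-a1, -1.51 ± 1.81 for Hbb-b1 and -0.486 ± 1.29 for Alas2 (SE). HYP minus CON was -5.46 ± 2.59 for Hbb, -5.31 ± 2.51 for Hba-a1, -3.66 ± 1.81 for Hbb-b1 and -1.36 ± 1.29 for Alas2. CHF minus HYP was 3.74, 3.95, 2.16 and 0.878. Without HYP left ventricle array 5, HYP minus CON was 0.923 for Hbb, 1.57 for Hba-a1 and 1.05 for Hbb-b1, and CHF minus HYP was -2.64, -2.93 and -2.56, so that 1 array set the direction of both. Turning the sign, which affects 3 of these 6 arrays, gave CHF minus CON values of 5.12, 4.34, 4.64 and 1.27 for Hbb, Hba-a1, Hbb-b1 and Alas2. It gave HYP minus CON values of 3.42, 2.99, 4.66 and 1.72, and CHF minus HYP values of 1.69, 1.35, -0.0185 and -0.450. The left ventricle values therefore settle no direction between conditions.

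The scores of Hbb and Hba-a1 moved closely together across arrays. Over the 18 right ventricle arrays their Pearson correlation was 0.962 (Spearman 0.965), and 0.955 without the 2 arrays farthest from the median of Hbb. These arrays share the reference pool, and the values are given as a description. Hbb-b1 followed Hbb less closely, at 0.677 (Spearman 0.721), and at 0.493 without the 2 farthest arrays. Over the 6 left ventricle arrays, the 3 globin genes formed pairs with correlations between 0.993 and 0.997, with HYP array 5 at 1 end of the range. On turned arrays, Hbb and Hba-a1 were at 0.976 and Hbb and Hbb-b1 at 0.866 over the right ventricle arrays. Over the 17 right ventricle arrays that measured Alas2, its correlation was -0.561 with Hbb (Spearman -0.544), -0.432 with Hba-a1 and 0.164 with Hbb-b1. Without the 2 farthest arrays the values were -0.436, -0.30 and 0.2998, and with the sign turned they were -0.376, -0.249 and 0.0634. Over the 6 left ventricle arrays Alas2 was at -0.166, -0.181 and -0.215 with the same genes. With the sign turned it was there at 0.0958, 0.0431 and 0.281.

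The gap between the 2 beta globin probes varied from array to array. Hbb-b1 stood above Hbb by 4.27 on HYP array 4, by 4.0 on CON array 20, by 3.87 on CON array 19 and by 2.64 on HYP array 6 of the right ventricle. CON array 17, CHF array 10 and CHF array 14 followed, at 2.05, 1.78 and 1.5. On CON array 22, HYP array 1 and HYP array 5 the gap was 0.846, 0.807 and 0.789, and on the other 8 right ventricle arrays it lay between -0.188 and 0.379. The gap was 3.17 on HYP array 5 of the left ventricle and lay between -0.51 and 0.131 on the other 5. The gap is between 2 scores against the pool and not between the amounts of 2 RNAs. The 4 widest gaps of the right ventricle were on HYP and CON arrays, and gaps of 0.846 or more were on arrays of every condition. In CHF these were arrays 10 and 14 alone, which are turned arrays. With their sign turned both gaps fall below 0, and no CHF array then has a gap of 0.846 or more.

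The right ventricle scores of Alas2 followed an ordering of the arrays that many other genes shared. The first component of 1614 features with a value on every right ventricle array, computed without the globins and Alas2, held 38.2% of their variance. Its scores ran from -19.1 on HYP array 8 and CHF array 12 to 32 on CHF array 14. Taken upward along the component, Alas2 read -2.14 on HYP 8, -2.34 on HYP 3, -2.49 on CON 18, -2.43 on CHF 11, -2.68 on CON 21, -2.11 on CHF 15, -2.16 on CHF 9, -2.07 on HYP 1 and -1.57 on HYP 5. Further along it read -0.232 on CON 17, -0.158 on CON 22, -0.0675 on CON 19, 0.582 on CON 20, 0.015 on HYP 6, 1.12 on HYP 4, 0.616 on CHF 10 and 1.25 on CHF 14. No array read between -1.57 and -0.232, and arrays of every condition stood on both sides of that gap. For CHF the upper side held only arrays 10 and 14, which are turned arrays. With their sign turned both fall inside the gap, and no CHF array is left above it. Because the scores fall in separate ranges, no correlation with the component is given. Hbb-b1 minus Hbb split by the sign of the component as well. It lay between -0.188 and 0.807 on arrays with a component score below 0 and between 0.846 and 4.27 on the others. The component and both splits are those of unturned arrays and were not repeated with the sign turned.

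Of 1444 genes with a value on every array, 112 correlated with Alas2 above 0.8 and 96 below -0.8 over the 17 right ventricle arrays that measured Alas2, together 14.4%. The strongest was Exoc8, which encodes a subunit of the exocyst, at 0.995. For the mean of the 3 globins the same count was 0 above and 1 below. This was looked at after the values of Alas2 had been seen, and was not repeated with the sign turned. S100a9, a calcium-binding protein gene of neutrophils and monocytes, ran the same way as Alas2, at -2.49 on HYP array 1 and 1.57 on HYP array 4. S100a8, also read as a neutrophil marker, did not, at -0.1075 and -0.345 on the same arrays. Myoglobin (Mb), the oxygen-binding globin of heart muscle, was at 0.280 on CHF array 14, -0.364 on CHF array 10 and 0.296 on HYP array 4. It was at -2.71 on CHF array 11, -3.02 on HYP array 3 and -2.15 on HYP array 8, and its highest score, 1.39, was on CON array 22. The part of array technique in this component was not tested.

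**Figure D3:**
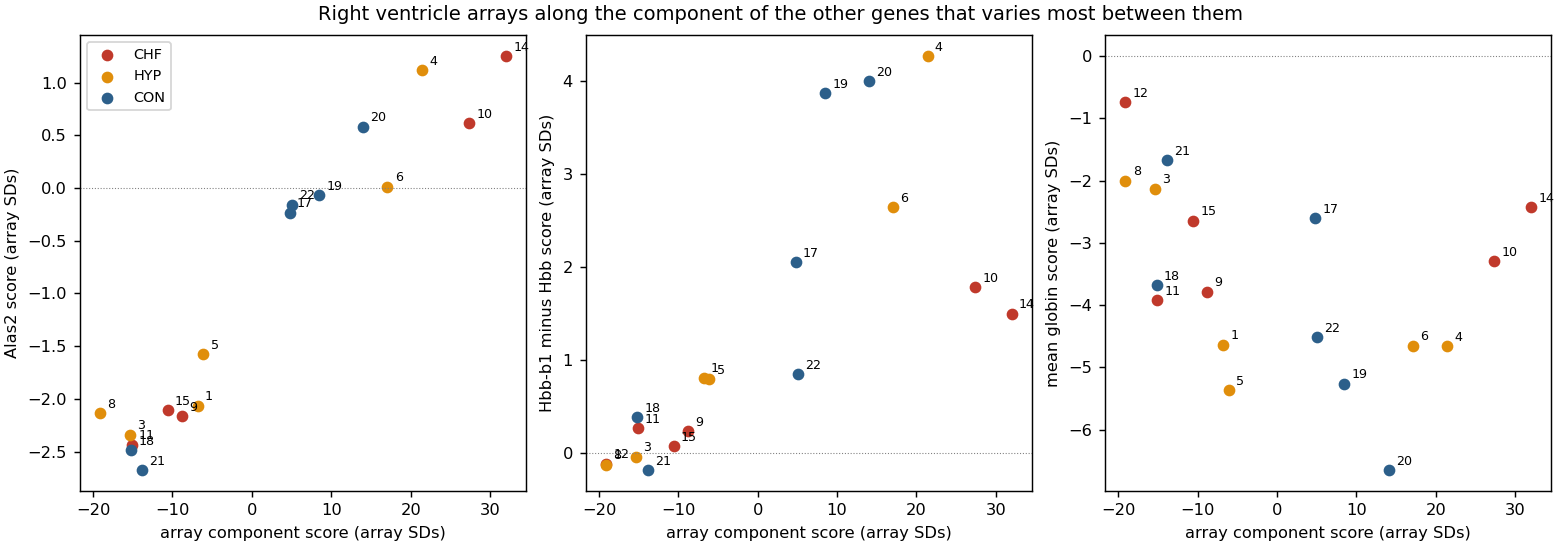
Alas2 score, Hbb-b1 minus Hbb, and the mean globin score on each right ventricle array (vertical axes, array SDs) against the array's score on the first component of 1614 other features; numbers are the sample numbers. Alas2 lies at -1.57 or lower on every array with a component score below 0 and at -0.232 or higher on every other array, with all 3 conditions on both sides, while the mean globin score shows no such step. Hbb-b1 minus Hbb lies between -0.188 and 0.807 below a component score of 0 and between 0.846 and 4.27 above it. All values are unturned, and the only CHF arrays above a component score of 0 are the turned arrays 10 and 14.

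By the mean of the 4 genes over all 24 arrays, the most similar of 1444 genes was Penk, the precursor of the enkephalins, at a Pearson correlation of 0.762. It was followed by Ddn, the synaptic protein dendrin, at 0.733, by Sparc, a matrix glycoprotein, at 0.729, by Atp12a, a proton and potassium pump, at 0.715 and by Prl2a1, of the prolactin family, at 0.714. For Ddn, Sparc and Prl2a1 the correlation over the right ventricle arrays alone was -0.0765, -0.0813 and 0.0258, so that their likeness came from the difference between ventricles and from the left ventricle arrays. Penk kept 0.519 over the right and 0.658 over the left ventricle arrays, and its right minus left difference was -3.36 ± 0.690. Penk was again first with the sign turned, at 0.805, and Atp12a was at 0.677, while Ddn, Sparc and Prl2a1 were at 0.267, 0.276 and 0.331. The most opposed were Cmklr1, a chemerin receptor, at -0.774, Ccdc80 at -0.770, Gfra1, a receptor for glial-derived factor, at -0.769, Tnni1, the slow skeletal troponin I, at -0.766 and Epha3, an ephrin receptor, at -0.751. These 5 lay, with the sign turned, between -0.631 and -0.565.

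On deviations from the group means, which remove the ventricle and condition, other genes came first. B4galt6 had 0.789, Itpka, an inositol trisphosphate kinase gene, 0.787, Gstt2, a glutathione transferase gene, 0.770, Chrm2, the muscarinic receptor of the heart, 0.759, and Cdh4, a cadherin gene, 0.724. The most opposed were Mvk at -0.657, Pdp2 at -0.644, Rpl29 at -0.627, Scamp1 at -0.622 and Abcc9 at -0.602. HYP left ventricle array 5 weighs heavily here: for all 5 of the first group it was the lowest of the left ventricle arrays, at -3.21 for Itpka and -0.549 for B4galt6. These correlations have no test, since arrays share the pool and the genes were picked for being most alike.

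Of the other genes of the pathway, none passed the test between conditions in the unpaired fit, and none passed as lower in the right than in the left ventricle. Fits with the shared sample number were read for at most 2 genes of each list below, those with the smallest p between ventricles. With that number as a block, 3 of these passed as lower in the right ventricle, where 958 of 2997 features passed. They were Hmox2 at -0.885 (limma adjusted p = 0.0139), Ftl1 at -0.814 (adjusted p = 0.0476) and Slc11a2 at -1.03 (adjusted p = 0.0186). With the number as a random effect Stat5a passed as lower, at -1.09 (adjusted p = 0.0427), where 744 of 2494 features passed. The 6 lists of other globins, haem synthesis, haem breakdown, iron handling, red cell membrane and enzymes, and erythroid regulators name 111 further genes, of which 46 were on the array. In CHF against CON of the right ventricle, 0 of 33 tested genes passed limma at an adjusted p below 0.05, with 2 at an unadjusted p below 0.05, where 29 of 3199 features (0.907%) passed. In HYP against CON 0 of 33 passed, with 3 at an unadjusted p below 0.05, where 0.281% of features passed. In CHF against HYP 0 of 33 passed, with 1 at an unadjusted p below 0.05, where 0% of features passed and 158 had an unadjusted p below 0.05. The median difference of the 33 was -0.00933, 0.0693 and -0.0785 in these 3 comparisons. In the left ventricle 0 of 30 passed in each comparison, again where 0% of 2494 features did, with 0, 1 and 1 at an unadjusted p below 0.05 for CHF against CON, HYP against CON and CHF against HYP. Over all features 22, 46 and 75 had an unadjusted p below 0.05 there.

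Between ventricles, 457 of 2494 features (18.3%) passed, and 2 of the 30 list genes did, both higher in the right ventricle. An unadjusted limma p below 0.05 was found for 901 features and for 6 of the 30. With the sign turned on the 5 arrays, limma passed 0 of 2494 features between ventricles, with 299 at an unadjusted p below 0.05, so that every call between ventricles given here was then lost. Alad, the enzyme after 5-aminolevulinate synthase in haem synthesis, ranged from -0.663 to 0.975 over the 18 right ventricle arrays. Its left ventricle scores were -0.737 and -0.89 in CHF, -0.38 and -0.357 in HYP and -0.87 and -0.63 in CON. The groups overlapped only through the right ventricle arrays CHF 10, CHF 14 and HYP 4, and right minus left was 0.790 ± 0.223 (SE, limma adjusted p = 0.0217). Leaving out HYP 3, CHF 9, CHF 15, CON 21 or CON 22 of the left ventricle ended this call, at 0.750 to 0.830, while the other 19 fits without 1 array kept it. With the sign turned the difference was 0.184 and did not pass.

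Jak2, the kinase through which the erythropoietin receptor signals, ranged from -0.342 to 0.747 over the right ventricle arrays. Its left ventricle scores were -0.951 and -0.68 in CHF, -0.719 and 0.019 in HYP and -0.83 and -0.69 in CON. Apart from HYP array 5, at 0.019, all left ventricle values lay below all right ventricle values. Right minus left was 0.904 ± 0.180 (SE, limma adjusted p = 0.00402) and passed in all 24 fits that left out 1 array, but not with the sign turned, at 0.0773. Jak2 serves many cytokine receptors besides that for erythropoietin.

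The other haem synthesis genes did not pass. Urod, which acts further along the pathway, had right minus left at 0.197 ± 0.210 (limma adjusted p = 0.511), and Alas1, the synthase of non-erythroid cells, 0.138 ± 0.232 (adjusted p = 0.685). Tspo, a protein of the outer mitochondrial membrane, differed by -0.30 ± 0.250 in CHF against CON (adjusted p = 0.780), and Abcb6, a porphyrin transporter, by -0.243 ± 0.307 (adjusted p = 0.862), and both were above 0 with the sign turned. Mb had -1.03 ± 0.637 for right minus left (adjusted p = 0.250).

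Genes that break down haem and handle iron also fell short of the threshold. Hmox2, the constitutive haem oxygenase, had right minus left at -0.753 ± 0.335 (limma adjusted p = 0.110), and Blvra, a biliverdin reductase, 0.618 ± 0.305 (adjusted p = 0.147). In the right ventricle Blvra was 0.636 ± 0.373 in CHF against CON and 0.712 ± 0.373 in HYP against CON (adjusted p = 0.663 and 0.9997), and Hmox1, the inducible haem oxygenase, -0.262 ± 0.266 and -0.165 ± 0.253 (adjusted p = 0.814 and 0.9997). Cp, the ferroxidase ceruloplasmin, had the largest iron difference of CHF against CON, at 1.04 ± 0.344 (adjusted p = 0.283), and 0.728 ± 0.344 in HYP against CON (adjusted p = 0.9997). Ireb2, an iron-responsive RNA binding protein gene, had 0.530 ± 0.280 in CHF against CON (adjusted p = 0.626). For the ferritin light chain gene Ftl1 right minus left was -0.404 ± 0.233 (adjusted p = 0.218), and for the iron importer gene Slc11a2 -0.641 ± 0.305 (adjusted p = 0.135), which passed without CHF right ventricle array 14, at -0.768 (adjusted p = 0.0340). Fth1, the ferritin heavy chain gene, had -0.519 ± 0.412 in HYP against CON (adjusted p = 0.9997).

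Among red cell enzymes and membrane proteins, Cat, the catalase gene, had -0.599 ± 0.208 in CHF against CON and -0.462 ± 0.208 in HYP against CON (limma adjusted p = 0.315 and 0.9997). Sod1, a superoxide dismutase gene, had -0.377 ± 0.386 in CHF against CON (adjusted p = 0.818) and was above 0 with the sign turned. Pklr, a pyruvate kinase gene of liver and red cells, had 0.680 ± 0.475 in HYP against CON (adjusted p = 0.9997). Gpx1, a glutathione peroxidase gene, had right minus left at -0.755 ± 0.419 and Bnip3l, which clears mitochondria from reticulocytes, 0.588 ± 0.405 (adjusted p = 0.200 and 0.306).

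Of the erythroid regulators other than Jak2, Gata1, the erythroid GATA factor, had 1.08 ± 0.597 in CHF against CON, on 3 and 5 arrays, and Kitlg, the ligand of the receptor Kit, 1.04 ± 0.596, on 4 and 5 arrays (limma adjusted p = 0.658 for each). Kitlg had 0.545 ± 0.538 in HYP against CON (adjusted p = 0.9997). Stat5b, a signal transducer downstream of Jak2, had 1.04 ± 0.374 in HYP against CON (adjusted p = 0.9997), with HYP array 5 at 2.78. Stat5a, its close relative, had right minus left at -1.09 ± 0.409 (adjusted p = 0.0681), which did not pass. It passed without HYP array 6, at -1.24 (adjusted p = 0.0253), and without CON array 22 of the right ventricle, at -1.21 (adjusted p = 0.0382), and was 0.436 with the sign turned.

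**Figure D4:**
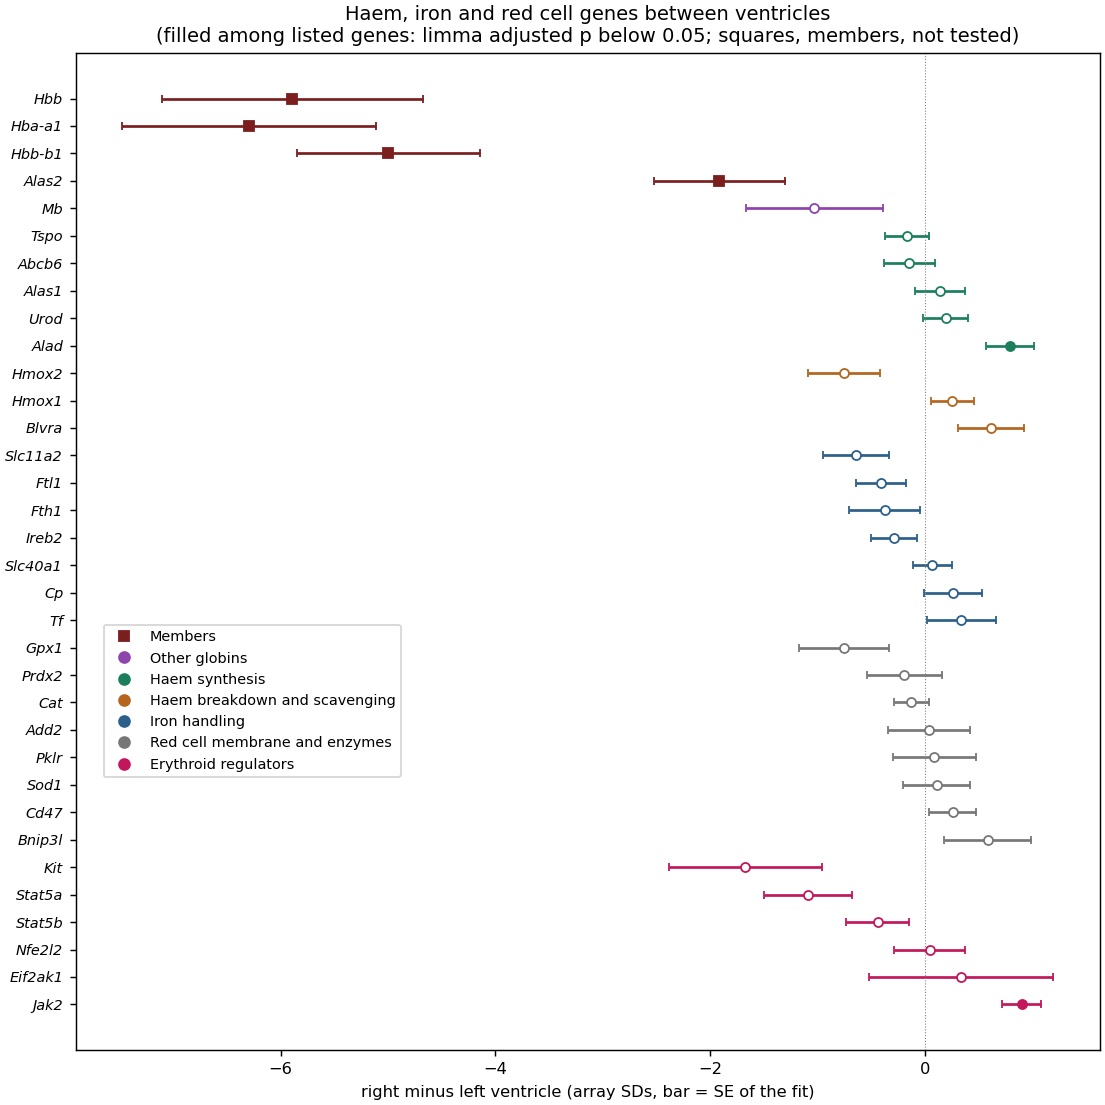
Right minus left difference (array SDs, bars are SE of the limma fit) for Hbb, Hba-a1, Hbb-b1 and Alas2 (squares, not tested) and for the 30 list genes tested (circles, filled where the adjusted p was below 0.05). The globins lie between -6.29 and -5.00, and all 30 list genes lie between -1.67 and 0.904.

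The hypoxia response list, which holds genes that low oxygen raises, had 13 genes tested between ventricles. Of their differences 10 were below 0, and 7 had an unadjusted limma p below 0.05, as had 901 of 2494 features. Past the test were 0 higher and 1 lower in the right ventricle, where 18.3% of all features passed. That gene, Hk2, a hexokinase gene, had right minus left at -1.34 ± 0.442 (SE, 16 and 6 arrays, limma adjusted p = 0.0427). The call was lost in 15 of 24 fits without 1 array, with a difference of -0.855 without HYP left ventricle array 5, and with the sign turned, at -0.664. Nos2, an inducible nitric oxide synthase gene, had -0.663 ± 0.253 (adjusted p = 0.0697). It passed with the sample number as a block, at -0.858 (adjusted p = 0.0321), with it as a random effect, at -0.708, and without CHF array 10 or 14 or HYP array 4 of the right ventricle, at -0.746 to -0.704. In the right ventricle 0 of 18 passed in limma in CHF against CON, HYP against CON and CHF against HYP, with 1, 2 and 1 at an unadjusted p below 0.05, where 0.907%, 0.281% and 0% of features passed. Hif3a, of the family of hypoxia-inducible factors, had 2.11 ± 0.702 in CHF against CON on 4 and 3 arrays and 1.82 ± 0.671 in HYP against CON on 5 and 3 arrays (adjusted p = 0.319 and 0.9997). Vegfa, an endothelial growth factor gene, had 1.65 ± 0.838 in CHF against CON (adjusted p = 0.608) and -0.995 with the sign turned, and Edn1, the endothelin gene, -1.45 ± 0.656 in HYP against CON (adjusted p = 0.9997).

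Red cells could be read from few other genes. Slc4a1, the anion exchanger of the red cell membrane, had a value on 5 arrays, all of the right ventricle. These were 0.781 on CHF array 10, 0.922 on HYP array 8, and -0.476, 1.12 and -0.015 on CON arrays 17, 18 and 20. Rhag, a protein of the Rh complex, was on the array with 0 values. The reading of blood content thus rests on the 3 globin probes, with Alas2 departing from them on the right ventricle arrays and on HYP left ventricle arrays 3 and 5.

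No marker of other blood cells passed as lower in the right ventricle. Of 13 neutrophil, platelet, lymphocyte, monocyte and general leukocyte markers tested, 2 passed, both higher in the right ventricle. That is 15.4%, near the 18.3% of all features, and 5 of the 13 had an unadjusted limma p below 0.05. Cxcr2, a chemokine receptor of neutrophils, had right minus left at 0.620 ± 0.210 (limma adjusted p = 0.0442), and Laptm5, a lysosomal protein of leukocytes, 0.892 ± 0.241 (adjusted p = 0.0182). The 13 differences lay between -1.06 and 0.892. Of 13 cardiomyocyte markers, 3 passed as lower in the right ventricle, Ckm, Myl3 and Ttn, and 0 as higher. Of the 13 differences 11 were below 0, with a median of -0.872, and 6 had an unadjusted limma p below 0.05. Of 4 markers of skeletal muscle and fat, Fabp4 and Lpl passed as lower, with 2 differences above and 2 below 0. Of 5 fibroblast markers Lum passed as higher, and of 5 smooth muscle markers Acta2 did, against a list median of -0.0511. Of 1 endothelial marker tested 0 passed in limma, with 0 at an unadjusted p below 0.05. The mean of the 11 cardiomyocyte markers with a value on every array ranged from -1.94 to 1.15 over right ventricle arrays and from 0.606 to 1.22 over left ventricle arrays, with HYP left ventricle array 5 at 0.893. That value lies within the ranges of both ventricles. The same array had the lowest left ventricle mean of the lists of haem synthesis (-0.174), haem breakdown (-0.258), iron handling (-0.248), red cell genes (-0.214), lymphocytes (-0.336) and skeletal muscle and fat (-1.06). It had the highest of the erythroid regulators (0.421) and of platelets (0.556). Of these means, that of lymphocytes was Cd3g alone, that of platelets Selp alone, and that of red cell genes held Cd47, Cat, Prdx2 and Sod1. The part of tissue mixture in the globin difference was not tested.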

How the data were processed

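RNA of 24 rat ventricle samples was measured on 2-colour arrays against a common reference pool. The deposited table holds 1 score for each probe on each array, made by the authors. Each array's scores had a mean of -0.0345 to 0.0713 and an SD of 0.870 to 1.01 and so look standardised within arrays. The design had assumed log ratios or scores, and the same fit was used. Not given in the sources used here are the log base, dyes, scanner, background correction, normalization and filters. Between 23.8% and 55.0% of probes had no value on an array.

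Genes were named through the platform annotation (4278 of 4803 probes with 1 symbol, 4 with several, 521 with none), checked by Entrez identifier against RefSeq GRCr8 (4257 found, 0 symbols changed). Each array was centred on its median, since array medians ran from -0.2 to 0.217, and probes of 1 gene were averaged, giving 4651 features. Groups were compared by limma 3.58.1 (functions lmFit, contrasts.fit and eBayes, under R 4.3.3; Benjamini-Hochberg over all features, adjusted p below 0.05; at least 2 arrays with a value in each group). Right ventricle comparisons used 18 arrays and the others 24 arrays in 6 groups, with left ventricle groups of 2 assumed to vary like the rest. The number of arrays limits the precision, and since no label says that the samples are separate animals, p-values reflect only the spread among the samples, which can be technical. The fit was tested on simulated data. Promoters were aligned with Biopython 1.88.

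The members and gene lists were chosen with earlier results of these data known. Named genes were the members, every list gene past the test, the 2 of each list with the smallest p in 3 comparisons, and the 5 most and 5 least alike the mean of the members. Markers of other blood cells, heart muscle, fibroblasts, vessels, skeletal muscle and fat were also read. Alternatives were the values without centring, scaling by the MAD, probes as features, features with a value on every array, the 2 groups alone, each array left out, the sign turned on 5 arrays, and the shared sample number as a block.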

Additional observations from a re-analysis of the deposited data

Results flagged for a closer look

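In 95 sets of 4 to 6 right ventricle arrays of a named gene and group, 6 held a value far from the others, where chance gives about 1 in 20. Left ventricle groups were too small for such a set. In the right ventricle, Cp was -1.11 on CHF array 10, with the nearest CHF value at 0.0630. Ireb2 was -1.33 on HYP array 5, with the nearest at -0.599, and Stat5b was 2.78 on the same array, with the nearest at 0.814. Bnip3l was 2.06 on HYP array 6, with the nearest of the other 4 values at 0.203. Abcb6 was -1.41 on CON array 21, with the nearest at -0.275, and Blvra was -1.41 on CON array 22, with the nearest at -0.114.

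The CHF minus CON difference of 2 globin genes had opposite signs in the ventricles, with every CHF sample on the same side of the CON mean within a ventricle. Hbb was at 1.80 in the right and -1.72 in the left ventricle, and Hba-a1 at 1.38 in the right and -1.36 in the left. The difference between ventricles was not tested, and the left ventricle values became 5.12 and 4.34 with the sign turned.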

How the results depend on the processing

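With the sign turned on 5 arrays, the number of features past the limma test became 9 for CHF against CON, 1 for HYP against CON and 1 for CHF against HYP in the right ventricle, 96 for HYP against CON in the left ventricle and 0 for right against left. The mean difference of the 4 genes became 2.16 for CHF minus CON and 2.12 for CHF minus HYP in the right ventricle, 3.84 (reversed), 3.20 (reversed) and 0.644 for CHF minus CON, HYP minus CON and CHF minus HYP in the left, and -1.30 for right minus left. Single genes that reversed were Hbb, Hba-a1, Hbb-b1 and Alas2 in the left ventricle, at 5.12, 4.34, 4.64 and 1.27 for CHF minus CON and at 3.42, 2.99, 4.66 and 1.72 for HYP minus CON, and Hbb-b1 at -0.0185 for CHF minus HYP. In CHF minus CON of the right ventricle Tspo (0.226), Abcb6 (0.0974), Hmox1 (0.247), Sod1 (0.259), Kitlg (-0.0907) and Vegfa (-0.995) reversed, as did Stat5a (0.436) in right minus left. Leaving out those 5 arrays, chosen after seeing the data, gave 18 features for CHF against CON in the right ventricle, with Sod1 at 0.150. CHF minus HYP in the left ventricle was then 2.95 for the mean of the 4 genes, with 0 features past limma and 69 at an unadjusted p below 0.05. The comparisons that need a CON left ventricle array could not be fitted. Fitting only the 2 groups gave 0 features for HYP against CON in the right ventricle. HYP minus CON of the right ventricle was itself the same with the sign turned and with the 2 groups alone, at 0.333 for Hbb. What differed was the estimate of spread, which the main fit shares with the CHF arrays, and, with the 2 groups alone, the features tested (3451). The cause of the other changes was not tested.

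Leaving out each array in turn gave 16 to 38 features for CHF against CON, 3 to 9 for HYP against CON and 0 to 1 for CHF against HYP in the right ventricle. In the left ventricle it gave 0 for CHF against CON, 0 to 4 for HYP against CON and 0 to 5 for CHF against HYP, and 140 to 683 for right against left. The mean of the 4 genes ranged over 0.598 to 1.18, -0.281 to 0.302 and 0.570 to 1.14 in the right ventricle, over -1.92 to -0.610, -8.25 to 0.350 and -1.62 to 6.98 in the left, and over -6.21 to -3.34 for right minus left. Both left ventricle means that involve HYP reversed without HYP array 5, at 0.350 and -1.62. Mb in HYP minus CON of the right ventricle (-0.108) ranged from -0.478 to 0.363 and was above 0 without HYP array 3 or 8 or CON array 17 or 22. Urod in right minus left ranged from -0.0964, without HYP left ventricle array 5, to 0.490. Without HYP left ventricle array 3 and without array 5, HYP minus CON in the left ventricle ran from -11.8 to 0.923 for Hbb, from -12.2 to 1.57 for Hba-a1 and from -8.38 to 1.05 for Hbb-b1. CHF minus HYP ran from -2.64 to 10.1, from -2.93 to 10.8 and from -2.56 to 6.87 for the same genes.

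The same-numbered arrays of the 2 ventricles did not deviate together throughout, with correlations of deviations of -0.200 and 0.305 in CHF, 0.243 and 0.261 in HYP and 0.0125 and 0.0577 in CON, and 1 of 6 left ventricle arrays correlated best with its own number. With the replicate block, right against left gave 958 of 2997 features over the 6 shared numbers. With the block as a random effect (consensus correlation 0.231) it gave 744 of 2494, where the unpaired fit gave 457. The block added calls of Hmox2, Ftl1, Slc11a2 and Nos2, and the random effect of Stat5a and Nos2, among the named genes. Values as deposited, MAD scaling, probes as features and the filter for complete features kept every count within 1.5 times. Signal over background is not held in the scores, so its limit is unknown.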
